A study of Mus musculus with 6 samples.

Results

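The mouse solute carrier (Slc) genes that were well expressed in day 6 embryoid bodies, the aggregates in which embryonic stem cells differentiate, were described across 6 arrays. They were chosen by their mean signal over all arrays: a gene was taken when its brightest probe set reached a mean of at least 300, and Slc2a1, Slc2a3 and Slc4a1 were left out by the rule. This gave 119 of the 344 Slc genes named on the array, out of 18193 genes named in the whole series. Their high level is therefore a description and not a finding. Solute carriers are membrane proteins that move nutrients, ions, nucleotides and metals across the cell surface and the membranes of organelles. Many couple 1 solute to another, by exchange or by co-transport with sodium or protons, and their gene names group them by sequence into numbered families. Fast-growing embryonic cells rely on them for amino acid uptake, for lactate export, for the traffic of metabolites between cytosol and mitochondria, and for the iron and zinc that blood-forming tissue needs.

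All samples came from Hoxb4i embryonic stem cells, a line that carries an integrated tet-on cassette from which doxycycline switches on HOXB4, a homeodomain transcription factor of blood-forming cells. Embryoid bodies were started at 3500 cells/ml and collected on day 6. The induced group had doxycycline at 2 µg/ml for 48 hours from day 4, and the uninduced group had none. Each group has 3 arrays (Affymetrix Mouse Genome 430 2.0), named for experiments A, B and C, 6 arrays in all. Cells without the cassette given doxycycline are not among the samples, so HOXB4 and doxycycline itself cannot be told apart. The design text calls the 3 experiments biological replicates. An embryoid body is a mixture of cell types, and in such bulk RNA fewer cells of a type and less RNA per cell cannot be told apart.

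The signal of the Hoxb4 probe set with the higher mean was 78.2 uninduced then 136.3 induced in experiment A, 253.0 then 261.4 in B, 27.6 then 150.7 in C. It was higher with doxycycline in 3 of 3 experiments, by little in B, and did not pass the test (adjusted p = 1.00, limma with Benjamini-Hochberg adjustment). The labels do not say whether this probe set covers the cassette's transcript. Every array had been scaled to a trimmed mean of 500, and the 119 genes together made up 0.497% to 0.582% of an array's total signal. The uninduced array of A stood apart in its ratio of 3′ to 5′ Actb signal, a measure of RNA quality, at 2.881 against 1.264 to 1.479 on the other arrays. Its Gapdh ratio was less apart, at 1.082 against 0.834 to 0.903. That array held the highest value of 34 of the 119 genes and the lowest of 27, and it was the highest or lowest array for 53.8% of all probe sets tested.

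The 119 genes fell into 9 classes by family. There were 27 mitochondrial carriers, 20 carriers of amino acids and their derivatives, 18 of nucleosides and nucleotide sugars, 17 of metal ions and 10 of sugars and monocarboxylates. The others were 9 carriers of organic ions, lipids and peptides, 9 of inorganic ions and pH, and 7 of vitamins, choline and cofactors. The remaining 2, Slc9a3r1 and Slc4a1ap, encode binding partners named after a carrier and transport nothing themselves. Mean signals ran from 307.6 to 18454, and 92 of the 119 genes were at 300 or more on all 6 arrays. Just inside the threshold were Slc36a4 at 307.6, Slc27a3 at 324.0 and Slc12a4 at 329.9, and just outside it Slc11a2 at 298.3, Slc48a1 at 295.0 and Slc25a25 at 288.5. Of the 119 genes, 48 had 1 probe set and 71 had several, of which the brightest was used.

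**Figure D1:**
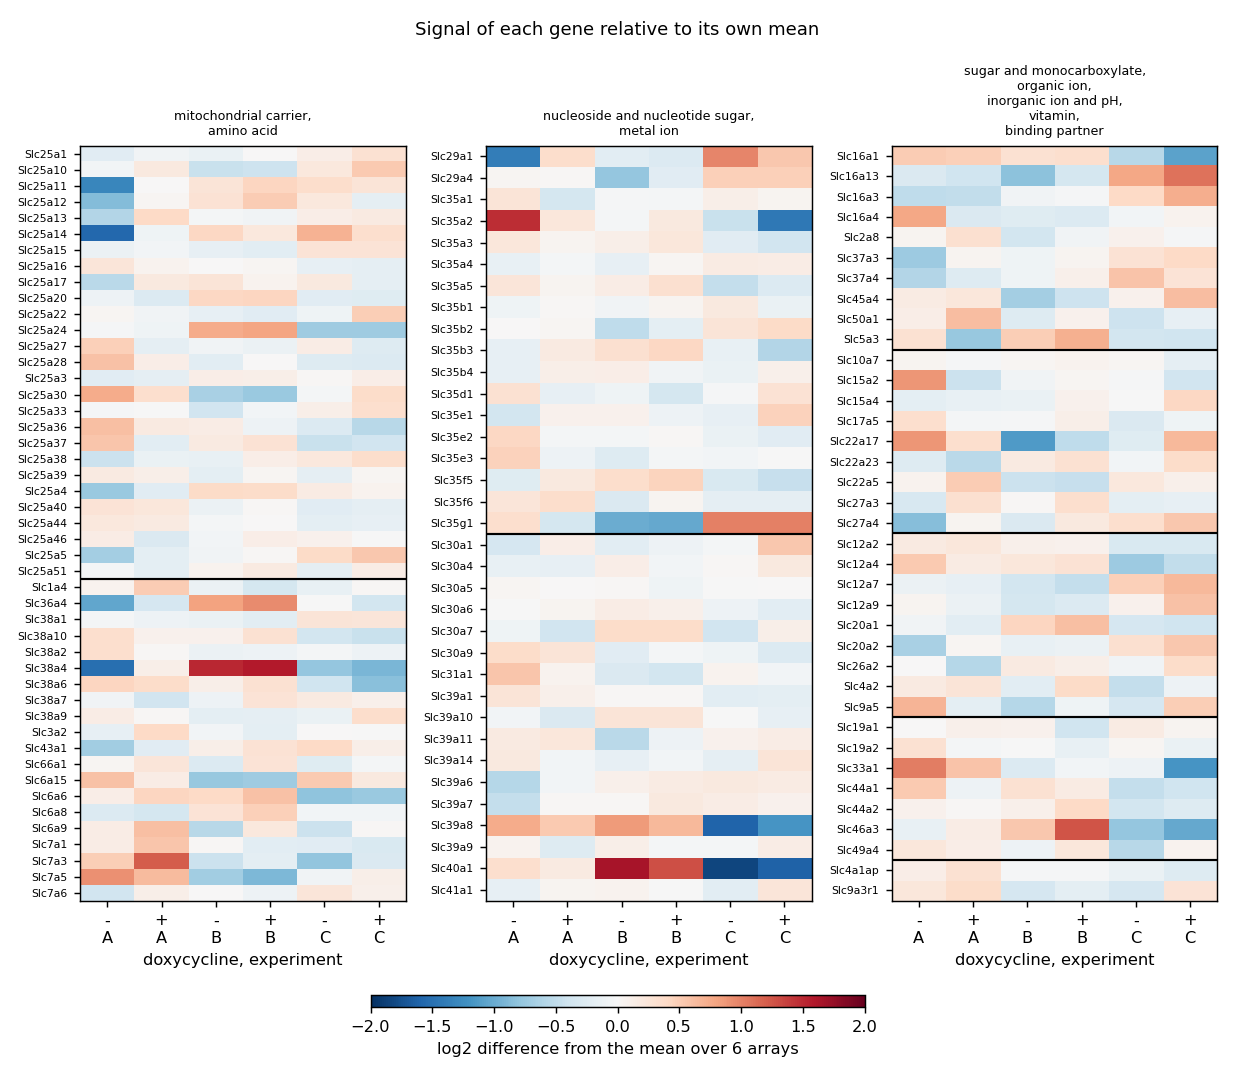
Signal of each of the 119 genes on each of the 6 arrays, as the log2 difference from that gene's own mean over the arrays (red higher, blue lower), for uninduced (-) and induced (+) arrays of experiments A, B and C, with black lines between classes. Strong colours run in pairs of arrays of 1 experiment for Slc40a1, Slc39a8, Slc38a4 and Slc35g1, and sit on the uninduced array of A alone for Slc25a11 and Slc25a14.

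Doxycycline did not move any of the 119 genes past the test. With limma on log2(signal + 18.8) and Benjamini-Hochberg adjustment over 27022 probe sets, 0 of 119 passed an adjusted p of 0.05, and 0% of all tested probe sets did. At an unadjusted p of 0.05 the count was 0 of 119, beside 0.511% of all tested probe sets. With the experiment as a block the adjusted count was also 0, and 4 of the 119 had an unadjusted p under 0.05 (Slc6a9, Slc7a3, Slc27a4 and Slc25a36). This stood beside 3.94% of all tested and 2.98% of the 8445 genes with a mean signal of 300 or more. These 8445 are called equally bright genes here because they met the same floor of 300. They were not matched on signal: their median was 1106, against 724 for the 119. By sign, 72 genes were higher and 47 lower with doxycycline, which is 60.5% higher beside 51.4% of all tested probe sets and 52.4% of equally bright genes. This sign is that of the brightest probe set. Of the 65 genes with another tested probe set, 31 had at least 1 of the opposite sign. The median difference was 0.07 on the log2 scale beside 0.01 over all tested, and within experiments A, B and C it was -0.03, 0.09 and 0.02. In 3 of 3 experiments 23 genes were higher (19.3% beside 12.8% of all tested and 13.3% of equally bright genes). In 3 of 3 experiments 8 genes were lower (6.72% beside 13.2% and 12.7%). In the fit without the block, the median 95% interval reached 0.66 to either side. For 85 of the 119 genes the interval lay wholly within 1 log2 unit of 0. The intervals given gene by gene are from that fit too and leave the pairing out. No gene differed by over 1 log2 unit with 1 sign in all 3 experiments.

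**Figure D2:**
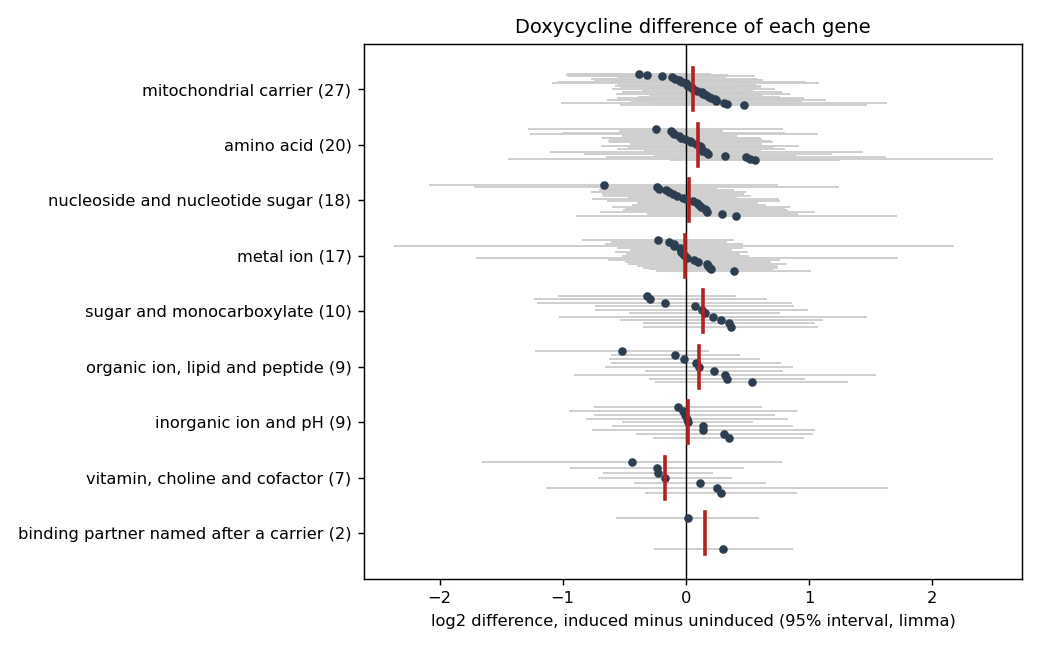
Difference between induced and uninduced arrays for each of the 119 genes (points, log2 scale) with its 95% interval from limma (grey lines), by class with the number of genes, and with the class median as a red bar. Every interval, from the fit without the experiment as a block, includes 0, and the class medians lie between -0.17 and 0.16.

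Among carriers of amino acids, 13 were higher and 7 lower with doxycycline, with a median of 0.10. The glycine transporter Slc6a9 had the smallest p among the genes that were higher. Its signal was 456 uninduced then 631 induced in A, 272 then 476 in B, 299 then 418 in C. It was higher with doxycycline in 3 of 3 experiments, yet the highest uninduced array, that of A, lay above the induced array of C. The group means were 343 ± 99.2 and 508 ± 109.7 (SD, n = 3 each), a log2 difference of 0.56 (95% interval -0.13 to 1.25, adjusted p = 1.00, limma). Its other tested probe set differed in the opposite direction. Slc66a1, a lysosomal exporter of cationic amino acids, read 392 then 457 in A, 314 then 468 in B, 318 then 369 in C, a log2 difference of 0.32 (-0.25 to 0.90). It too was higher in 3 of 3 experiments with overlapping groups. Slc38a2 and Slc38a1, sodium-coupled importers of small neutral amino acids, stood at -0.12 (-0.54 to 0.30) and -0.05 (-0.52 to 0.42). Slc3a2, the heavy chain that brings several amino acid exchangers to the cell surface, stood at 0.13 (-0.34 to 0.61).

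Among mitochondrial carriers, 18 were higher and 9 lower, with a median of 0.06. The phosphate carrier Slc25a3, whose product supplies phosphate for ATP synthesis, read 15652 then 16208 in A, 20206 then 19936 in B, 18627 then 20094 in C, a log2 difference of 0.05 (-0.33 to 0.42). Slc25a1, the citrate carrier that exports carbon for lipid synthesis, was higher in 3 of 3 experiments by 0.16 (-0.30 to 0.63). Slc25a27, an uncoupling protein relative, read 570.1 then 352 in A, 385 then 370.0 in B, 452 then 333 in C. All 3 induced arrays lay below all 3 uninduced ones, with a log2 difference of -0.38 (-0.96 to 0.21). The pyrimidine nucleotide carrier Slc25a36 was lower in 3 of 3 experiments, at -0.32 (-0.98 to 0.34), with overlapping groups. Without uninduced A its difference was -0.09, without induced C -0.12, without induced A -0.49 and without uninduced C -0.53. Only Slc25a27 and the thiamine transporter Slc19a2 had all induced arrays below all uninduced ones, and 0 genes had them all above, beside 2.11% and 2.24% of all tested probe sets and 1.54% and 1.86% of equally bright genes.

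Metal ion carriers were split, 8 higher and 9 lower, with a median of -0.00345. Slc30a1, which exports zinc at the cell surface, read 299 then 421 in A, 327 then 357 in B, 373 then 565 in C. It was higher in 3 of 3 experiments by 0.39 (-0.24 to 1.01), and 2 of the 3 induced arrays lay above every uninduced one. The zinc importers Slc39a10 and Slc39a7 stood at -0.14 (-0.61 to 0.33) and 0.20 (-0.30 to 0.71), and the copper importer Slc31a1 at -0.23 (-0.85 to 0.39). Slc30a9, of the zinc exporter family, stood at -0.04 (-0.58 to 0.51). The 2 mitoferrins, which carry iron into mitochondria for haem, stood at -0.20 (Slc25a37, -0.96 to 0.56) and -0.09 (Slc25a28, -0.77 to 0.59).

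Carriers of nucleosides and nucleotide sugars counted 9 higher and 9 lower, with a median of 0.03. Slc35a2, which brings UDP-galactose into the Golgi, had the widest gap of the genes named here as lower, at -0.67, but its interval ran from -2.08 to 0.75. It read 1699 then 706 in A, 585 then 690 in B, 437 then 211 in C, so B went the other way. Without uninduced A the difference was -0.10, without induced C -0.12 and without uninduced C -1.05. Slc35a1, the Golgi carrier of CMP-sialic acid, stood at -0.22 (-0.70 to 0.25), and Slc35b1 of the endoplasmic reticulum at -0.03 (-0.47 to 0.42). The family member Slc35f5 stood at 0.12 (-0.60 to 0.85).

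The sugar and monocarboxylate class counted 7 higher and 3 lower (median 0.14), and the inorganic ion class 6 and 3 (median 0.01). The myo-inositol importer Slc5a3 stood at -0.29 (-1.23 to 0.66). The anion exchanger Slc4a2, which swaps chloride for bicarbonate, was higher in 3 of 3 experiments by 0.35 (-0.27 to 0.96), and Slc12a2, a sodium-potassium-chloride cotransporter, stood at 0.01 (-0.52 to 0.55). Carriers of organic ions, lipids and peptides counted 6 and 3 (median 0.11). Slc27a4, a long-chain fatty acid transporter, read 318 then 609 in A, 476 then 676 in B, 744 then 863 in C. It was higher in 3 of 3 experiments by 0.53 (-0.25 to 1.32), although the uninduced array of C exceeded both other induced arrays. The peptide transporter Slc15a2 stood at -0.52 (-1.22 to 0.19), with 2885 on the uninduced array of A against 1151 to 1611 on the others, and its other tested probe set differed in the opposite direction. The lysosomal peptide and histidine carrier Slc15a4 stood at 0.23 (-0.33 to 0.79) and Slc22a23 at 0.08 (-0.61 to 0.78). Vitamin, choline and cofactor carriers counted 3 and 4 (median -0.17). Slc19a2 read 1853 then 1444 in A, 1484 then 1336 in B, 1526 then 1356 in C, a log2 difference of -0.22 (-0.67 to 0.22). The choline transporter genes Slc44a2 and Slc44a1 stood at 0.12 (-0.42 to 0.65) and -0.23 (-0.94 to 0.47). Without uninduced A, the array with the high 3′ to 5′ Actb ratio, Slc27a4 stood at 0.24, Slc15a2 at -0.21, Slc25a27 at -0.23 and Slc19a2 at -0.13. Without uninduced C, Slc4a2 stood at 0.19 (0.52 without uninduced A) and Slc27a4 at 0.84, and without induced C Slc30a1 stood at 0.21.

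Differences between the 3 experiments were larger than those with doxycycline. Sums of squares over the 6 arrays were added up over the 119 genes. Of this total the experiment term (2 degrees of freedom) took 78.8% and doxycycline (1 degree of freedom) 7.37%. The shares were 71.9% and 9.49% over all tested probe sets, and 83.8% and 5.19% over equally bright genes. Such pooled shares weigh the most variable genes most and do not describe a typical gene. In an F test of the experiment term with doxycycline as a covariate (limma, adjusted over all tested probe sets), 21 of 119 genes passed, which is 17.6%. The background was 11.6% of all tested probe sets, and 15.2% of equally bright genes, so the share lay near that of genes over the same floor of signal. At an unadjusted p of 0.05 the count was 46, beside 32.5% and 37.3%. The 21 were lowest in C for 11 genes, in B for 6 and in A for 4. By class they were 6 of 20 amino acid carriers, 5 of 27 mitochondrial, 3 of 10 sugar and monocarboxylate, 2 of 17 metal ion, 2 of 9 inorganic ion, 2 of 18 nucleoside and nucleotide sugar, and 1 of 7 vitamin carriers, with 0 of 9 in the organic ion class. The counts that follow are genes past an adjusted p of 0.05 in the contrast of 2 experiments (limma), a separate test from the F test. C was lower than B for 8 genes, beside 5.26% of all tested and 7.65% of equally bright genes, and higher for 4, beside 4.33% and 5.53%. C was lower than A for 9, beside 4.29% and 5.61%, and higher for 3, beside 2.52% and 3.28%. B was lower than A for 3, beside 1.91% and 2.74%, and higher for 4, beside 2.09% and 3.27%.

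These calls depended on single arrays. When 1 array was left out, the count ran from 7 (induced C) to 74 (induced A), which is 5.88% and 62.2% of the 119. All tested probe sets moved alike, to 5.56% and 51.1%. Leaving out uninduced A gave 51 (42.9% beside 32.4% of all tested), uninduced B 11, induced B 12 and uninduced C 11 (9.24%, 10.1% and 9.24% beside 5.68%, 6.54% and 5.65%). Slc40a1, Slc39a8, Slc16a1 and Slc38a4 passed whichever array was left out. Without the intensity trend of the variance 3 passed (Slc40a1, Slc39a8 and Slc35g1), which is 2.52% and below the 4.39% of all tested probe sets, whereas the share with the trend was above that of all tested. Of the 21 genes, 14 were at 300 or more on all 6 arrays. Another tested probe set was available for 13 of the 21. For 8 of these 13 all other tested probe sets had the same sign in the gene's largest contrast. For 6 of them at least 1 other probe set passed too. For 4 of the 21 (Slc40a1, Slc36a4, Slc46a3 and Slc16a13) the mean over the 4 arrays outside their highest experiment was 203.5 to 221.1, so these met the signal rule only through that experiment and had to be high there.

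**Figure D3:**
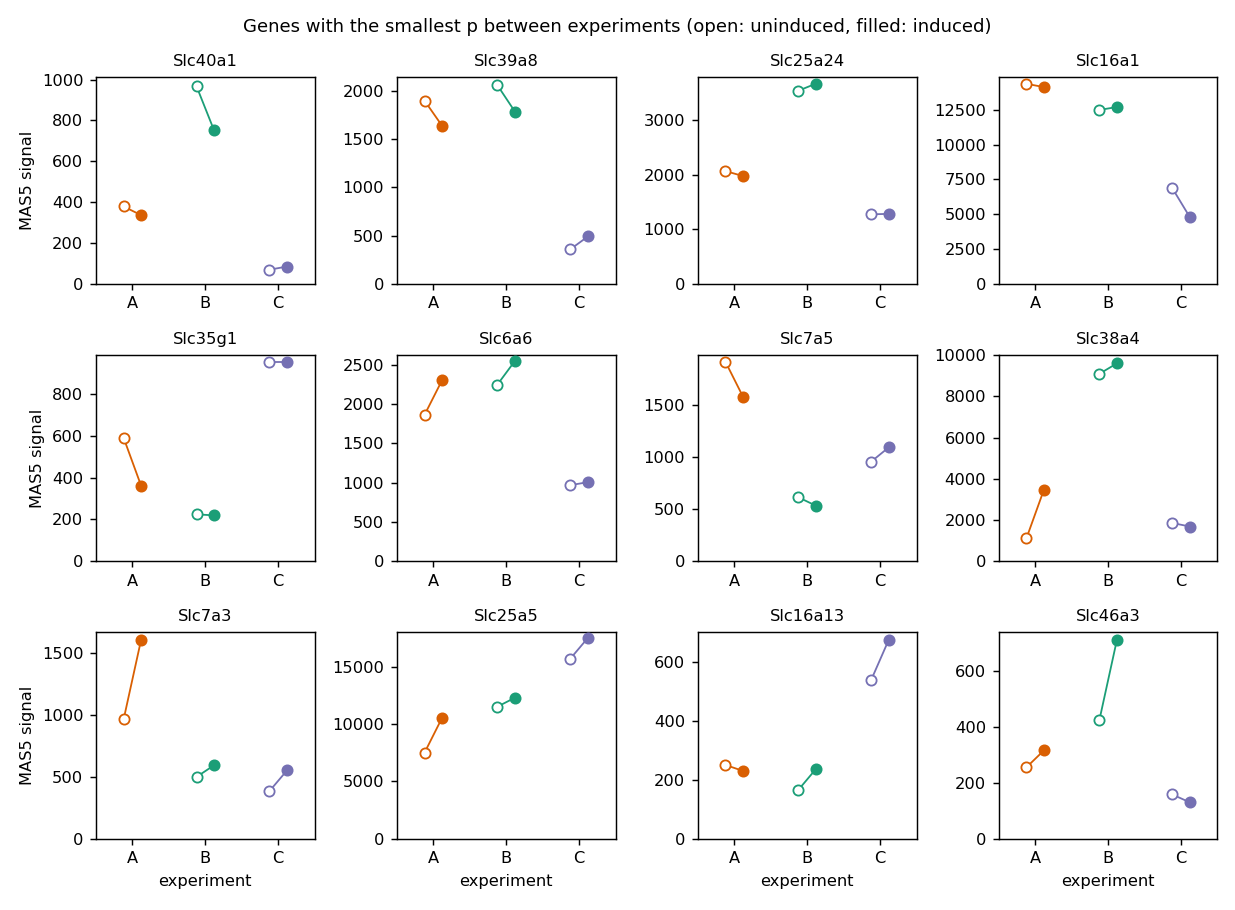
Signal of the 12 genes with the smallest p of the F test between experiments, per array, with open circles uninduced, filled circles induced, and lines joining the 2 arrays of an experiment. Slc40a1, Slc39a8, Slc25a24, Slc16a1, Slc6a6 and Slc46a3 have both arrays of C below the other 4, while Slc35g1, Slc25a5 and Slc16a13 have both arrays of C above them.

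Promoter letters were read from RefSeq for the genes it listed, after their signals had been seen. The window was the 250 bases before each annotated start in GRCm38.p6, and 98 of the 119 genes had at least 1 window. The E-box CACGTG, the core bound by basic helix-loop-helix factors of the MYC, USF and TFE kinds, reads the same on both strands. It was in a window of 20 of the 98 genes (20.4%), beside 10.7% of 6959 equally bright genes and 6.86% of all 27025 genes in the table. CCAAT, on either strand, was in 38.8% of the 98, beside 41.2% of equally bright genes and 37.5% of all. GATAA, the core read by GATA factors, was in 20.4%, above the 16.5% of equally bright genes and below the 25.5% of all. Of the 21 genes that passed the F test between experiments, 15 had a window and 5 held CACGTG. The windows of these 5 genes are printed, and capitals mark CACGTG. Of the 5, 4 were lowest in C and Slc12a7 in B, beside 11 of all 21 that were lowest in C. The 20 genes with CACGTG were lowest in A, B or C in about equal numbers. A link between the motif and experiment was not tested. The windows are Slc39a8 at chr3:135825407-135825656 (plus strand), Slc16a1 at chr3:104638414-104638663 (plus), Slc20a1 at chr2:129198523-129198772 (plus), Slc12a7 at chr13:73763447-73763696 (plus) and Slc25a36 at chr9:97111042-97111291 (minus).
Slc39a8: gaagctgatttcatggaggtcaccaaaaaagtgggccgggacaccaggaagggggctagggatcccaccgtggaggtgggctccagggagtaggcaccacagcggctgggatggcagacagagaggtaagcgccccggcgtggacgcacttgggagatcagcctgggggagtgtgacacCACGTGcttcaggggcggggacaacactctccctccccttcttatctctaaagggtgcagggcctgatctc
Slc16a1: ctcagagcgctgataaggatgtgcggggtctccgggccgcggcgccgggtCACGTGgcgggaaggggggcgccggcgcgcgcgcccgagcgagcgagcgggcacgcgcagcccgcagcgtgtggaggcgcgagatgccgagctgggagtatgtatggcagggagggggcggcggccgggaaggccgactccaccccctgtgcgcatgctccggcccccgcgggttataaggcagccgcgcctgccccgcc
Slc20a1: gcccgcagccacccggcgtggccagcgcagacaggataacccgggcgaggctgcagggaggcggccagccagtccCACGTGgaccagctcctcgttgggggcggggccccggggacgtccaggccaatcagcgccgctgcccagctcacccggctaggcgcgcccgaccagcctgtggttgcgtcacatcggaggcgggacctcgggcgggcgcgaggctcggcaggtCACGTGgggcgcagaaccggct
Slc12a7: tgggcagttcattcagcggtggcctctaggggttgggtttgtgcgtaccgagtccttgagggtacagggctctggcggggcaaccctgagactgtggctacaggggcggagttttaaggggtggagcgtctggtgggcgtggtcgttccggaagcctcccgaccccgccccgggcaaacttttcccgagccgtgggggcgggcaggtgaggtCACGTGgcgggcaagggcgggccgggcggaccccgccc
Slc25a36: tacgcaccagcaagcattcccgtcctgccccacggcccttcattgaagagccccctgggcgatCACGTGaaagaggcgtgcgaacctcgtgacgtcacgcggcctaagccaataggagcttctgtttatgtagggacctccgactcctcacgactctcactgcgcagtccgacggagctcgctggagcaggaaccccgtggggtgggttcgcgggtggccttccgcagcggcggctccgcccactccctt
The first base of the motif lay 71 bases before the listed start in Slc39a8, 200 in Slc16a1, 38 in Slc12a7 and 187 in Slc25a36, and the window of Slc20a1 held it 2 times. Slc39a8, Slc20a1 and Slc12a7 have 2 listed starts each, and the window of the other start held no CACGTG. For Slc39a8 and Slc12a7 both listed starts lie inside the annotated gene, downstream of its first base. A match is a run of letters and not a measured binding site.

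Metal carriers had the 2 smallest p-values. Slc40a1 encodes ferroportin, the iron exporter of the cell surface. It met the signal rule only through B. On the uninduced then the induced array it read 378 then 336 in A, 967 then 752 in B, 68.8 then 84.1 in C. The 3 experiments did not overlap, and B stood 11.2-fold above C by mean signal (log2 difference C minus B of -3.20 ± 0.28 SE, F test adjusted p = 0.00135, limma), with the same sign on its other tested probe set, which also passed. Every adjusted p given for a difference between experiments is that of the F test. Slc39a8 encodes ZIP8, which imports zinc and manganese, and its promoter is among those printed. It read 1901 then 1641 in A, 2060.3 then 1787 in B, 358 then 491 in C, so that C alone stood apart (C minus B of -2.15 ± 0.23 SE, adjusted p = 0.00219, limma). Slc30a5, a zinc carrier of the secretory pathway, did not pass (adjusted p = 0.97, limma). It ran from 1413 to 1542 over the 6 arrays and was among 10 genes whose highest array was under 1.3 times their lowest.

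Carriers of amino acids differed in several orders. Slc38a4, a sodium-coupled importer of small neutral amino acids, read 1111 then 3469 in A, 9090.2 then 9597 in B, 1858 then 1686 in C (C minus B of -2.39 ± 0.38 SE, adjusted p = 0.0106, limma). B stood above all other arrays, and the arrays of A lay on both sides of C. The taurine transporter Slc6a6 read 1864 then 2305 in A, 2251 then 2552 in B, 969 then 1007 in C (C minus B of -1.26 ± 0.18 SE, adjusted p = 0.00901, limma). Its C arrays were the lowest, and its other tested probe set passed with the same sign.

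Slc7a5 encodes LAT1, the light chain that pairs with Slc3a2 to bring in large neutral amino acids. It read 1919.8 then 1584 in A, 616 then 535 in B, 959.8 then 1097 in C, with B lowest and A highest (B minus A of -1.57 ± 0.22 SE, adjusted p = 0.00967, limma). Its partner Slc3a2 read 2637 then 3884 in A, 2835 then 2576 in B, 2967 then 2935 in C and did not pass (adjusted p = 0.647, limma). The arginine and lysine importer Slc7a3 read 966 then 1610.2 in A, 500.3 then 595 in B, 386 then 553 in C, with both arrays of A the highest (C minus A of -1.40 ± 0.23 SE, adjusted p = 0.0152, limma). Its relative Slc7a1, which carries the same amino acids, did not pass (adjusted p = 0.184, limma). Slc36a4, which met the signal rule only through B, was highest there (B minus A of 1.56, adjusted p = 0.0403) and Slc6a15, an importer of branched-chain amino acids and proline, was lowest in B (C minus B of 1.10, adjusted p = 0.0449, both limma).

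Monocarboxylate carriers differed in opposite directions. Slc16a1 encodes MCT1, a proton-coupled carrier of lactate and pyruvate. It read 14379 then 14142 in A, 12498 then 12707 in B, 6879.8 then 4799.8 in C, the lowest in C (C minus A of -1.31 ± 0.16 SE, adjusted p = 0.00473, limma). Slc16a3 encodes MCT4, which mainly exports lactate. It read 579 then 585 in A, 793 then 817 in B, 1101 then 1386 in C, the highest in C (C minus A of 1.06 ± 0.21 SE, adjusted p = 0.039, limma). Slc16a13, a less studied member of the family, met the signal rule only through C, with 541 and 676 against 166 to 251 elsewhere (C minus B of 1.52 ± 0.28 SE, adjusted p = 0.0221, limma).

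Mitochondrial carriers passed in 5 cases. The ATP-magnesium carrier Slc25a24 read 2065 then 1975 in A, 3539.8 then 3669 in B, 1273 then 1281 in C, so the experiments did not overlap (C minus B of -1.48 ± 0.17 SE, adjusted p = 0.00467, limma). Slc25a4 and Slc25a5 encode the ADP/ATP carriers that export newly made ATP from mitochondria. Slc25a5 read 7513 then 10549.5 in A, 11533 then 12311 in B, 15724 then 17529 in C (C minus A of 0.90 ± 0.14 SE, adjusted p = 0.0169, limma). It was highest in C and lowest in A, with the same sign on 5 of its 7 other tested probe sets. Taken as the median over its probe sets, the difference was 0.60 and did not pass (adjusted p = 0.0521, limma). Slc25a4 read 8629 then 12363 in A, 18856 then 18750.1 in B, 16255 then 15177 in C, the highest in B (B minus A of 0.86 ± 0.17 SE, adjusted p = 0.031, limma). Slc25a30 was lowest in B (B minus A of -1.24, adjusted p = 0.0342) and Slc25a36 lowest in C (C minus A of -0.81, adjusted p = 0.0356, both limma). The oxoglutarate carrier Slc25a11 did not pass, with 816 on the uninduced array of A and 2070.0 to 2759 on the other 5.

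The other classes gave 5 genes. Slc35g1, of the nucleotide sugar carrier superfamily, read 589.7 then 361 in A, 224 then 219 in B, 950.4 on both arrays of C (C minus B of 2.01 ± 0.27 SE, adjusted p = 0.00862, limma), without overlap between experiments. Slc46a3, a lysosomal carrier, read 255 then 316 in A, 423 then 709 in B, 158 then 130.2 in C, the reverse order, and met the signal rule only through B (C minus B of -1.80 ± 0.31 SE, adjusted p = 0.0238, limma). The sodium-phosphate cotransporter Slc20a1 was highest in B (C minus B of -0.88, adjusted p = 0.0309) and the potassium-chloride cotransporter Slc12a7 highest in C (C minus B of 0.99, adjusted p = 0.0333, both limma). Slc35a2 was lower in C than in A by 1.79 on the log2 scale (adjusted p = 0.0373, limma), with the same sign on 2 of its 5 other tested probe sets.

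Markers of cell types also differed between the experiments. The summed signal of 7 measured visceral endoderm markers, genes of the outer absorptive layer of the early embryo, was 6568 then 7583 in A, 15920 then 14800.1 in B, 930.5 then 1018 in C. Of the 7, 6 passed the F test between experiments, and none was at 0. Ttr alone made up 11110 of the 15920 on the uninduced array of B. Between B and A the markers split, with Ttr, Rbp4 and Apoa1 higher in B (B minus A of 1.43, 1.60 and 2.33) and Afp and Amn lower (-2.60 and -1.75), all 5 past the test (limma). Cubn stood at -1.14 and Apob at 0.04. Slc40a1 had the order B, A, C, which the visceral endoderm sum and the cardiac sum also had, so the order is not particular to 1 list. Summed markers of other cells also ran with experiment: erythroid genes reached 36800 in B against 442 to 2949 elsewhere, mesenchymal genes 19978 against 2124 to 2584, and endothelial genes 5897 against 272.6 to 1505. Cardiac genes reached 3494 in B and 347.5 to 1704.5 elsewhere, and neural genes 3066 in C against 123.1 to 1762 elsewhere. Pluripotency genes reached 3653 in C against 961 to 1740.0 elsewhere. Single genes weighed on these sums too: Hbb-bh1 made up 27951 of the 36800, and Dppa5a 2249 of the 3653. Pou5f1 (1015), Pax6 (1016) and Neurod1 (253) were highest on uninduced A, and the remaining tested pluripotency and neural markers in C. Of the cardiac list, Myh6 and Myh7 were highest on uninduced A and Nkx2-5 on uninduced C, the remaining ones in B. By the F test 4 of 6 erythroid, 5 of 6 mesenchymal, 6 of 6 endothelial, 3 of 6 cardiac, 4 of 5 neural and 2 of 6 pluripotency markers passed, and none was at 0. For all these marker counts the background was 11.6% of all tested probe sets and 15.2% of equally bright genes. The part of these cell types in the differences between experiments was not tested.

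**Figure D4:**
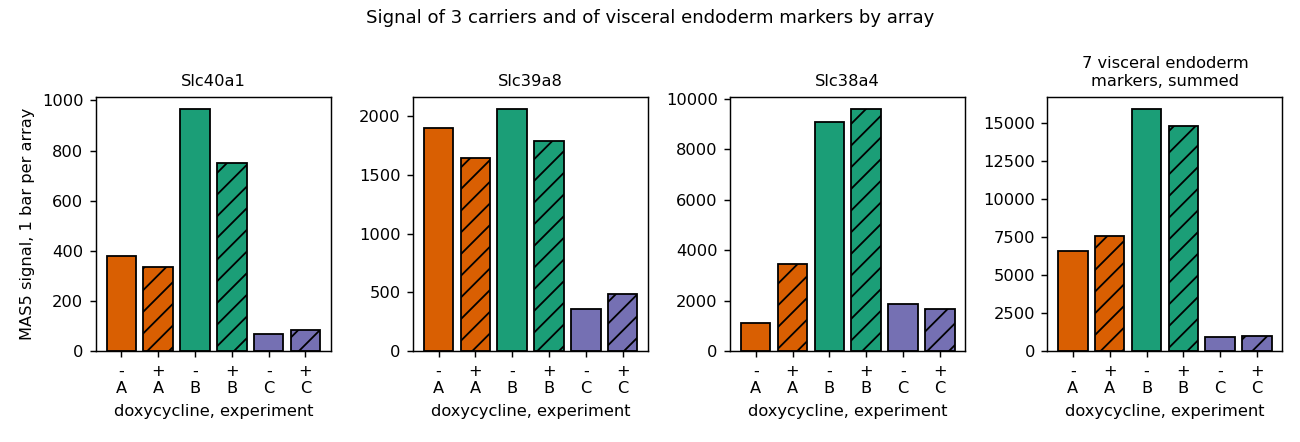
Signal per array of the iron exporter Slc40a1, the zinc and manganese importer Slc39a8 and the amino acid importer Slc38a4, beside the summed signal of 7 visceral endoderm markers, for uninduced (-) and induced (+, hatched) arrays. The highest bar of all 4 panels is in B, and the marker sum, 15920 in B and 930.5 in C on the uninduced arrays, is mostly Ttr, while Afp, Amn and Cubn of the same list are highest in A.

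Genes that work with these carriers were read from 7 lists. In the fit without the block 0 of them passed the doxycycline test at an adjusted or an unadjusted p of 0.05 (limma), beside the 0% and 0.511% above. With the block, Abcb1b (lower, unadjusted p = 0.0264) and Nptn (higher, unadjusted p = 0.0334, both limma) were under 0.05, beside 3.94% of all tested probe sets. Neither passed after adjustment. For the counts between experiments that follow, the background was 11.6% of all tested probe sets and 15.2% of equally bright genes. Among sodium pump subunits, whose sodium gradient drives many Slc importers, 2 of 3 tested genes passed between experiments. Atp1b1 was highest in B and lowest in C (C minus B of -1.52, adjusted p = 0.0074) and Atp1b2 lowest in B (B minus A of -2.07, adjusted p = 0.0327, both limma). Among iron genes 2 of 5 passed. The transferrin receptor gene Tfrc, which brings iron in, read 2717 then 2946 in A, 5020.3 then 3886 in B, 6283 then 4760 in C, lowest in A (C minus A of 0.95, adjusted p = 0.031, limma). Fth1, the heavy chain of the iron store ferritin, read 14221 then 17050 in A, 21389 then 22329 in B, 13373 then 14448 in C, highest in B as was Slc40a1 (C minus B of -0.65, adjusted p = 0.0249, limma).

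Among zinc and copper genes 2 of 6 passed, both metallothioneins, which bind zinc in the cytosol. Mt1 read 1401 then 1873 in A, 667 then 656 in B, 1157 then 1486 in C (B minus A of -1.27, adjusted p = 0.0172, limma), and Mt2 was likewise lowest in B (B minus A of -1.51, adjusted p = 0.0166, limma). Among 12 ABC transporters, pumps driven by ATP, 1 passed: Abcg2, an exporter of porphyrins and drugs, was lowest in C (C minus B of -1.29, adjusted p = 0.0227, limma). None of 3 ancillary subunits, 4 porin and pyruvate carrier genes or 5 Slco genes passed. Bsg, the chaperone that takes MCT1 and MCT4 to the cell surface, read 7377 then 13362 in A, 15797 then 13051 in B, 12701 then 10586 in C (adjusted p = 0.328, limma). The smallest p for doxycycline in each list belonged to Abcb1b, Nptn, Heph, Mpc1, Slco3a1, Atp1b2 and Mtf1, and the largest of these differences was -0.98 (-2.12 to 0.16) for the drug pump gene Abcb1b.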

How the data were processed

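RNA from embryoid bodies was hybridised to 6 arrays, 3 with and 3 without doxycycline. For every probe set the authors deposited an intensity, made with MAS5 per the submitters' processing notes; a MAS5 version and a genome build were not given in the sources used here. No detection calls or depth were used, and precision is limited by the number of arrays. Of 45101 probe sets, 64 controls were left out. GEO's annotation of the platform named the genes: 34945 probe sets had 1 gene symbol (34741 updated through RefSeq), 932 had several and 9160 none, and only the first kind named a gene.

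Values were taken as log2(signal + 18.8), the offset being the 20th percentile over every array, so differences of dim genes are understated. Probe sets with a mean signal of 60.5 or more, 27022 in number, were fitted with limma 3.58.1 in R 4.3.3 (eBayes, trend on intensity, p-values adjusted after Benjamini-Hochberg across that set), and all 119 genes passed this filter. Induced was compared with uninduced without a block. The experiments were compared by an F test with doxycycline as a covariate, which leaves 2 residual degrees of freedom. The letters A, B and C name shared experiments, so they pair the arrays: the deviations of the paired arrays from their group means correlated at 0.445, 0.671 and 0.66. The code was tested on simulated data.

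The genes and lists were chosen with earlier results of these data known. Classes follow the family number. The genes named were, per class, the 3 with the highest mean, the 5 of smallest p in each direction with doxycycline, the 12 of smallest p between experiments, those beside the threshold, and partner genes that passed or had the smallest p in their list. The other genes that passed between experiments, and some of like function, were named after their values were seen. Other offsets, filters, normalizations, thresholds, left-out arrays and the replicate block were tried as alternatives.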

Additional observations from a re-analysis of the deposited data

How the results depend on the processing

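With doxycycline, 0 of the 119 genes passed under all 18 alternatives, the replicate block among them, and the median difference stayed above 0 in each (0.01 to 0.12, and 0.03 to 0.07 without 1 array). The replicate block changed no call at the adjusted threshold, and the 10 named doxycycline genes kept their sign under 160 of 160 combinations of gene and alternative, though the size moved by over 1.5 times without single arrays for Slc35a2, Slc25a36 and others given above. Between experiments the count of 21 became 3 without the intensity trend (2.52% beside 4.39% of all tested probe sets), 48, 9 and 7 without both arrays of A, B and C (40.3%, 7.56% and 5.88% beside 30.3%, 6.49% and 4.06%, chosen after seeing the data), and 7 to 74 without 1 array, with 11 to 12 for an array of B. Both fits without an array of A held all 21. The other alternatives gave 16 to 25. The 12 named genes, likewise picked by the smallest p, kept their sign throughout and lost their call in 25 of 168 combinations. The cause was not tested. Without an array of A the prior degrees of freedom of the variance rose from 5.96 to at least 94.25.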
